A study of Homo sapiens with 12 samples.

Results

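Solute carriers move ions, metals, organic acids, nucleosides, lipids and drugs across the plasma membrane and the membranes of organelles. The carriers described here were the rows of the count table whose symbol has the form SLC, number, A, number, outside the families SLC1, SLC2, SLC3, SLC6, SLC7, SLC38 and SLC43, which hold most of the classical amino acid and glucose carriers. The table held 335 symbols of that form. Of these 68 belonged to the families left out and 267 to the 43 families kept. After a filter on low counts, 170 of the 267 carriers, from 39 families, were tested among 16327 genes. The other 97 were not tested, and 30 of those had 0 counts in all 12 libraries. The choice by family number is not a strict choice by substrate: the kept families include SLC36 and SLC66, which carry amino acids, several mitochondrial carriers of amino acids, and the sodium-glucose family SLC5. Carriers with other letters in the symbol, such as the SLC35B genes and the SLCO family, fall outside the form.

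The cells were MDA-MB-468, a human cell line of triple-negative breast cancer, exposed to 0.5 µM EPZ5676 or to the solvent DMSO for 10 days. EPZ5676 (pinometostat) is an inhibitor of DOT1L, the enzyme that methylates lysine 79 of histone H3. After treatment the cells were sorted into ALDH1+ and ALDH1- populations, where ALDH1 stands for the aldehyde dehydrogenase whose activity marks breast cancer cells with properties of stem cells. Each population had 3 libraries from DMSO cells and 3 from EPZ5676 cells, which makes 4 groups (DMSO ALDH1+, EPZ5676 ALDH1+, DMSO ALDH1- and EPZ5676 ALDH1-). A single line and a single dose and time were used. The labels call the replicates biological but do not say that they came from separate cultures, so p-values measure the spread between these libraries, which may be technical. Levels are in CPM, counts for every 1000000 of the scaled library. They are not corrected for gene length, so levels of different genes are not compared.

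Total counts lay between 24348594 and 80195050 per library, and the 267 carriers took 0.907 to 0.983% of them. The epithelial markers EPCAM, KRT8, KRT18 and KRT19 lay between 519.7 and 3611 CPM over all libraries. In ALDH1+ EPCAM, KRT8 and KRT19 fell with EPZ5676 (log2 fold changes -0.28, -0.25 and -0.31, adjusted p = 0.015, 0.0238 and 0.00495), and EGFR, high in this line, rose (0.63, adjusted p = 0.00654); none of these was called in ALDH1-, and their part in the results was not tested. PGR did not pass 0.0351 CPM, and ESR1 lay at 6.83 to 10.8 CPM. DOT1L, the target, had log2 fold changes of -0.11 in ALDH1+ (SE 0.09, adjusted p = 0.41) and -0.25 in ALDH1- (SE 0.10, adjusted p = 0.0794); in a fit that also has the replicate number as a block, it was called lower in ALDH1- (adjusted p = 0.0142). The inhibitor acts on the enzyme, so the level of its RNA does not check the treatment. ALDH1A1 had log2 fold changes of -1.51 in ALDH1+ (SE 0.15, adjusted p = 3.7e-06) and -1.08 in ALDH1- (SE 0.15, adjusted p = 0.00014). Of 8 markers of immune, endothelial and stromal cells, 5 were tested, of which 4 rose and 1 fell in ALDH1+ and 3 rose in ALDH1-. Their summed level was 17.5 to 22.5 CPM in DMSO ALDH1+, 19.2 to 24.9 CPM in DMSO ALDH1-, 33.7 to 35 CPM in EPZ5676 ALDH1+ and 29.9 to 37.4 CPM in EPZ5676 ALDH1-, and the T cell marker CD3E did not pass 0.0367 CPM. COL1A1 and CSF1R made up most of this sum. These markers moved with the treatment, as the carriers below did, and their part in the results was not tested. PTPRC and VWF, both counted as rises in ALDH1+, had DMSO means below the filter's level of 0.359 CPM in each population. The filter thus favoured a rise in them, and their calls are no independent result. Of all genes tested, 17.8% were called higher and 13.7% lower in ALDH1+, and 13.6% higher in ALDH1-. In bulk samples, fewer cells with a transcript and less of it per cell cannot be told apart.

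Carriers are grouped into families by sequence, and a family mostly shares a kind of substrate and a coupling ion. In epithelial cells, sodium-proton exchangers and bicarbonate carriers set the acidity of the cytosol, potassium-chloride cotransporters set cell volume, and monocarboxylate carriers let lactate out of cells that run glycolysis. Zinc is lowered in the cytosol by carriers of the ZnT family (SLC30), raised by carriers of the ZIP family (SLC39) and bound by metallothioneins, and the carriers of family SLC25 pass metabolites through the inner mitochondrial membrane.

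The first question was how the carriers responded to EPZ5676 in each population. In ALDH1+ cells 82 of the 170 carriers changed at an adjusted p below 0.05 (edgeR, quasi-likelihood test), 48 upward and 34 downward, which is 48.2% of them against 31.5% of all genes tested. By direction, the background was 17.8% of all genes called higher and 13.7% called lower. In ALDH1- cells 63 carriers changed, 39 upward and 24 downward, or 37.1% against 22.6% of all genes, with 13.6% of all genes higher and 9.04% lower. The median log2 fold change of the carriers was close to 0, at 0.04 in ALDH1+ (all genes -0.01) and at -0.01 in ALDH1- (all genes -0.02), so rises and falls were present side by side. The share called among carriers lay above the background in both populations, while the medians differed from those of all genes by less than 0.05 on the log2 scale. These shares of all genes are also the background for the counts of families, classes and partner lists below.

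The counts were also taken apart by abundance. Among the 150 carriers averaging at least 1 log2 CPM, 36 were higher and 31 lower in ALDH1+, or 44.7% against 32.9% of all genes at that level, and 31 were higher and 22 lower in ALDH1-, or 35.3% against 23.8%. Of the 20 carriers below that level, 12 were called higher and 3 lower in ALDH1+ (all genes below it 21.7% and 5.09%), and 8 were higher and 2 lower in ALDH1- (16.6% and 2.21%). The filter kept 165 carriers that reached its level of 0.359 CPM in at least 3 libraries of each treatment. Another 3 (SLC10A4, SLC16A9 and SLC34A3) reached it in 3 libraries with EPZ5676 only and 1 (SLC47A2) with DMSO only. The filter thus favoured a difference between treatments in these 4, and their calls are no independent result. The remaining tested carrier reached it in 3 libraries of neither treatment alone. Among the 165, 45 were higher and 33 lower in ALDH1+. With the replicate number as a block, 58 carriers were higher and 43 lower in ALDH1+ (all genes 22.2% and 19.6%), and 45 were higher and 40 lower in ALDH1- (all genes 17.4% and 14.8%). The count of falls in ALDH1- thus rose from 24 to 40 with the block.

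The calls were then set side by side between the populations. Called upward in both were 35 carriers (12.1% of all genes) and called downward in both were 22 (6.63% of all genes). No carrier was called in opposite directions, 25 were called in ALDH1+ only (12.8% of all genes), 6 in ALDH1- only (3.93% of all genes) and 82 in neither. The log2 fold changes had the same sign in 141 of the 170 carriers and in 79.2% of all genes, so the sharing of direction was close to the background. The 3 EPZ5676 libraries lay outside the range of the 3 DMSO libraries for 95 carriers in ALDH1+ (41.4% of all genes) and for 95 in ALDH1- (39.1% of all genes). Changes of at least 2-fold among the called carriers were fewer: 13 rises and 4 falls in ALDH1+ (7.31% and 1.45% of all genes), and 12 rises and 5 falls in ALDH1- (5.94% and 0.882%). Among the 165 that reached the filter's level in both treatments, these were 10 rises and 3 falls in ALDH1+ and 10 and 4 in ALDH1-.

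**Figure D1:**
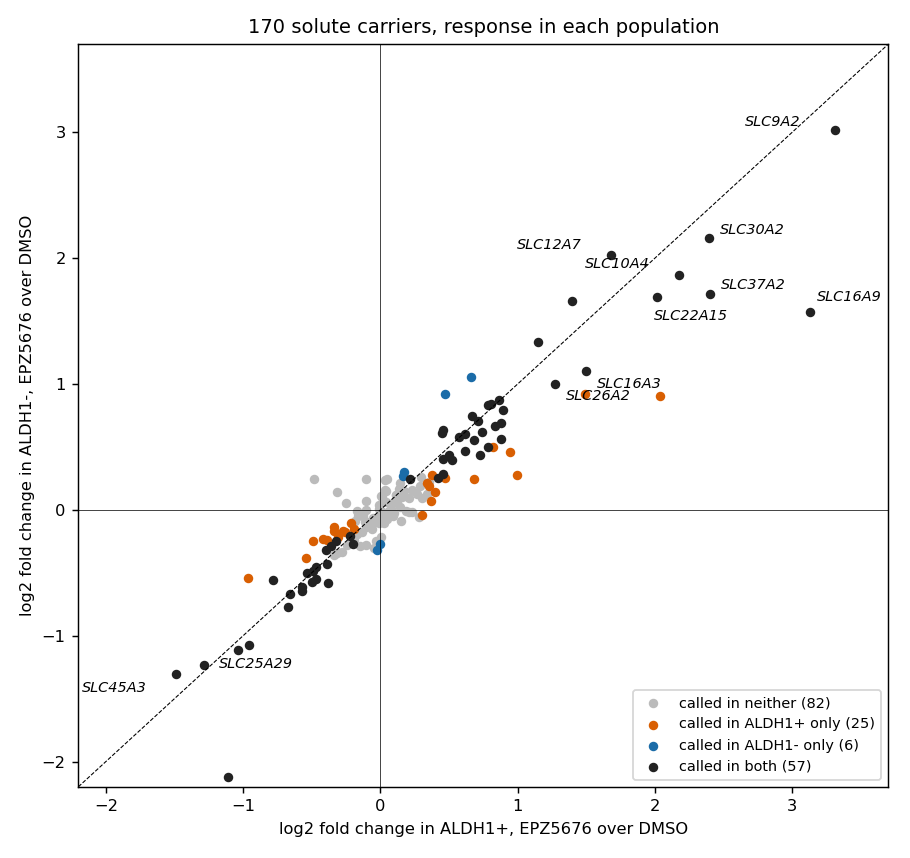
Log2 fold change of each of the 170 tested carriers with EPZ5676 against DMSO, in ALDH1+ (x axis) and in ALDH1- (y axis). Each point is a carrier, its colour tells in which population it was called, and the dashed line marks equal changes. The 35 carriers called higher in both populations lie in the upper right and the 22 called lower in both in the lower left, with SLC9A2 highest on both axes among the labelled carriers.

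The zinc carriers are described first. Of 8 tested ZnT genes, which move zinc out of the cytosol, 3 rose in both populations and the other 5 (SLC30A4, SLC30A5, SLC30A6, SLC30A7 and SLC30A9) were called in neither. In each population 37.5% of the family was called, beside 31.5% of all genes in ALDH1+ and 22.6% in ALDH1-. The 3 are SLC30A1, the zinc exporter of the plasma membrane, SLC30A2, which loads zinc into vesicles and is known from the mammary gland for zinc secretion into milk, and SLC30A3, known for loading zinc into synaptic vesicles. Their promoters are shown because the metal response element, the binding motif of the zinc-sensing factor MTF1, is known in zinc-induced genes. The motif was searched as TGCACNC or TGCGCNC on both strands, and each match is in capitals. The windows run from 250 bases before to 50 bases after the annotated start, 5′ to 3′ on the gene's strand, from RefSeq in build GRCh38.p14 (SLC30A1 at chr1:211579112-211579411, minus strand; SLC30A2 at chr1:26046069-26046368, minus strand; SLC30A3 at chr2:27275297-27275596, minus strand).

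SLC30A1: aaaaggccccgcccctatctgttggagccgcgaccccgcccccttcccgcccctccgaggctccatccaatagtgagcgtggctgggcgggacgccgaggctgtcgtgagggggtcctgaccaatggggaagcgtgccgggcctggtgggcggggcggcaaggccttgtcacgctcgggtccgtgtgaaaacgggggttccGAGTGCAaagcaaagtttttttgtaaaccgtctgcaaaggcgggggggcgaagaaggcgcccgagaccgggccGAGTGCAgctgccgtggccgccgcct
SLC30A2: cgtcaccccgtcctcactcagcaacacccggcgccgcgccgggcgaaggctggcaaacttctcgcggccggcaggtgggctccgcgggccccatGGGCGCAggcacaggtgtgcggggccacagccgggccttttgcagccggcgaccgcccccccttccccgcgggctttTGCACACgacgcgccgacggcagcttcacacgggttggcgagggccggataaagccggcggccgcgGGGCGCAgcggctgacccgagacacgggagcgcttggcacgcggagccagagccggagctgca
SLC30A3: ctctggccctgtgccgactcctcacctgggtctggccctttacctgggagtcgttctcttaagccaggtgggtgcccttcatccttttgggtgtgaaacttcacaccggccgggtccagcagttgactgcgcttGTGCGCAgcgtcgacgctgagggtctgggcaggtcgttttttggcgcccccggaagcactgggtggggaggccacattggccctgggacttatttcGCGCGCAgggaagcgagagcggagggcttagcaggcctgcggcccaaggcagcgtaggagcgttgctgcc

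The core was found 2 times in the window of SLC30A1, 3 times in that of SLC30A2 and 2 times in that of SLC30A3. Among the 5 ZnT genes that were not called, the windows of SLC30A4 and SLC30A6 held it 1 time each, and those of SLC30A5, SLC30A7 and SLC30A9 did not hold these letters. A match of 7 letters is a description of the sequence and not a bound site: 29.4% of all 27305 promoters in the table held at least 1 core.

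In ALDH1+ cells SLC30A1 measured 71.5, 83.2 and 74.1 CPM with DMSO and 127, 133 and 114 CPM with EPZ5676. Values in ALDH1- were 68.5, 80.1 and 73.8 CPM and 124, 125 and 115 CPM. All EPZ5676 libraries were above all DMSO libraries in each population, with log2 fold changes of 0.71 in ALDH1+ (SE 0.08, adjusted p = 1.3e-05) and 0.71 in ALDH1- (SE 0.08, adjusted p = 2.2e-05). The ALDH1+ libraries had 0.691, 0.398 and 0.266 CPM of SLC30A2 with DMSO and 2.50, 2.17 and 1.99 CPM with EPZ5676. For ALDH1- the values were 0.880, 0.544 and 0.346 CPM with DMSO and 2.41, 3.23 and 2.30 CPM with EPZ5676. The groups did not overlap here either, at levels close to the filter in DMSO, with log2 fold changes of 2.39 in ALDH1+ (SE 0.31, adjusted p = 4.5e-05) and 2.16 in ALDH1- (SE 0.31, adjusted p = 0.00015). SLC30A3 was near the filter in all groups, with means of 0.527 ± 0.0745 CPM with DMSO and 0.873 ± 0.140 CPM with EPZ5676 in ALDH1+ (SD, n = 3) and 0.543 ± 0.140 CPM with DMSO and 0.969 ± 0.152 CPM with EPZ5676 in ALDH1-. Its log2 fold changes of 0.78 in ALDH1+ (SE 0.24, adjusted p = 0.024) and 0.83 in ALDH1- (SE 0.26, adjusted p = 0.0336) rested on few counts. The call of SLC30A3 in ALDH1+ was lost without DMSO ALDH1+ replicate 3, EPZ5676 ALDH1+ replicate 2 or EPZ5676 ALDH1+ replicate 3 (adjusted p = 0.136, 0.0968 and 0.0542, in that order). The call of SLC30A3 in ALDH1- was lost without DMSO ALDH1- replicate 2, DMSO ALDH1- replicate 3, EPZ5676 ALDH1- replicate 1 or EPZ5676 ALDH1- replicate 2 (adjusted p = 0.103, 0.13, 0.102 and 0.112, in that order). DESeq2 (adjusted p = 0.0745 in ALDH1+ and 0.083 in ALDH1-) and the fit without the filter (0.051 and 0.0718) did not call it in either population.

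The ZIP family, which brings zinc and other metals into the cytosol, moved in both directions. Of 11 tested members, 3 were higher and 3 lower in ALDH1+, and 4 were higher and 2 lower in ALDH1-. That is 54.5% called in each population, against 31.5% of all genes in ALDH1+ and 22.6% in ALDH1-. With the block, 5 were higher in ALDH1+ and 4 lower in ALDH1-. SLC39A14, a carrier of zinc and of iron not bound to transferrin, had the largest rise of the family in both populations. SLC39A14 was at 60.4, 60.7 and 48.5 CPM in DMSO ALDH1+ and at 113, 106 and 91.9 CPM in EPZ5676 ALDH1+. It was at 74.8, 68 and 61.5 CPM in DMSO ALDH1- and at 111, 118 and 99.2 CPM in EPZ5676 ALDH1-. This gave log2 fold changes of 0.88 in ALDH1+ (SE 0.11, adjusted p = 2.3e-05) and 0.69 in ALDH1- (SE 0.11, adjusted p = 0.00029). SLC39A13, which releases zinc from vesicles of the secretory pathway, changed by 0.84 in ALDH1+ and 0.67 in ALDH1- (adjusted p = 0.00031 and 0.0026). SLC39A10, a zinc importer of the plasma membrane, changed by 0.74 in ALDH1+ and 0.62 in ALDH1- (adjusted p = 0.00014 and 0.0009). The groups did not overlap for any of these 3 genes.

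In the other direction, SLC39A11 fell in both populations, with means of 37.1 ± 1.97 CPM with DMSO and 26.8 ± 0.516 CPM with EPZ5676 in ALDH1+ (SD, n = 3) and log2 fold changes of -0.47 in ALDH1+ (SE 0.07, adjusted p = 0.00011) and -0.45 in ALDH1- (SE 0.07, adjusted p = 0.00025). A further 3 ZIP genes were picked out after their values were seen. SLC39A1, a widely expressed zinc importer, changed by -0.32 in ALDH1+ and -0.25 in ALDH1- (adjusted p = 0.00087 and 0.0071). SLC39A6 had log2 fold changes of -0.27 in ALDH1+ and -0.17 in ALDH1- (adjusted p = 0.0059 and 0.0905), and the block called it lower in ALDH1- too (adjusted p = 0.0406). SLC39A8, which carries zinc and manganese, had log2 fold changes of 0.16 in ALDH1+ and 0.27 in ALDH1- (adjusted p = 0.104 and 0.018), and the block called it higher in ALDH1+ too (adjusted p = 0.0257). The call of SLC39A8 in ALDH1- was lost without DMSO ALDH1- replicate 2 or EPZ5676 ALDH1- replicate 3 (adjusted p = 0.0851 and 0.0609, in that order), and without the filter (adjusted p = 0.051).

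Of 9 genes listed for metallothioneins and their transcription factor, 4 passed the filter; 2 rose in ALDH1+, 3 rose in ALDH1- and 0 fell; with the block all 4 rose in ALDH1+. MT1F, a metallothionein, stood at 5.31, 6.57 and 7.12 CPM with DMSO and 13.1, 14.8 and 12.8 CPM with EPZ5676 in ALDH1+, with log2 fold changes of 1.09 in ALDH1+ (SE 0.12, adjusted p = 1.2e-05) and 0.90 in ALDH1- (SE 0.13, adjusted p = 0.00014). MT1X had log2 fold changes of 0.56 in ALDH1+ and 0.80 in ALDH1- (adjusted p = 0.0555 and 0.018). Its call in ALDH1+ appeared with the block (adjusted p = 0.0422), and the call of MT1X in ALDH1- was lost without DMSO ALDH1- replicate 3, EPZ5676 ALDH1- replicate 1 or EPZ5676 ALDH1- replicate 2 (adjusted p = 0.0819, 0.0579 and 0.0511, in that order). MT2A changed by 0.26 in ALDH1+ and 0.40 in ALDH1- (adjusted p = 0.0486 and 0.0066). In ALDH1+ its groups overlapped, and the call of MT2A in ALDH1+ was lost without DMSO ALDH1- replicate 1, DMSO ALDH1- replicate 2, DMSO ALDH1- replicate 3, DMSO ALDH1+ replicate 1, DMSO ALDH1+ replicate 2, EPZ5676 ALDH1- replicate 1, EPZ5676 ALDH1- replicate 2, EPZ5676 ALDH1- replicate 3 or EPZ5676 ALDH1+ replicate 2 (adjusted p = 0.055, 0.0653, 0.056, 0.193, 0.0796, 0.0604, 0.063, 0.052 and 0.244, in that order), and in a fit of the compared groups alone (adjusted p = 0.104). MTF1, the metal-responsive factor itself, had log2 fold changes of 0.15 in ALDH1+ and -0.01 in ALDH1- (adjusted p = 0.139 and 0.95), with a call in ALDH1+ under the block (adjusted p = 0.0477). Metallothionein genes are close copies of each other, so reads may be split among them.

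**Figure D2:**
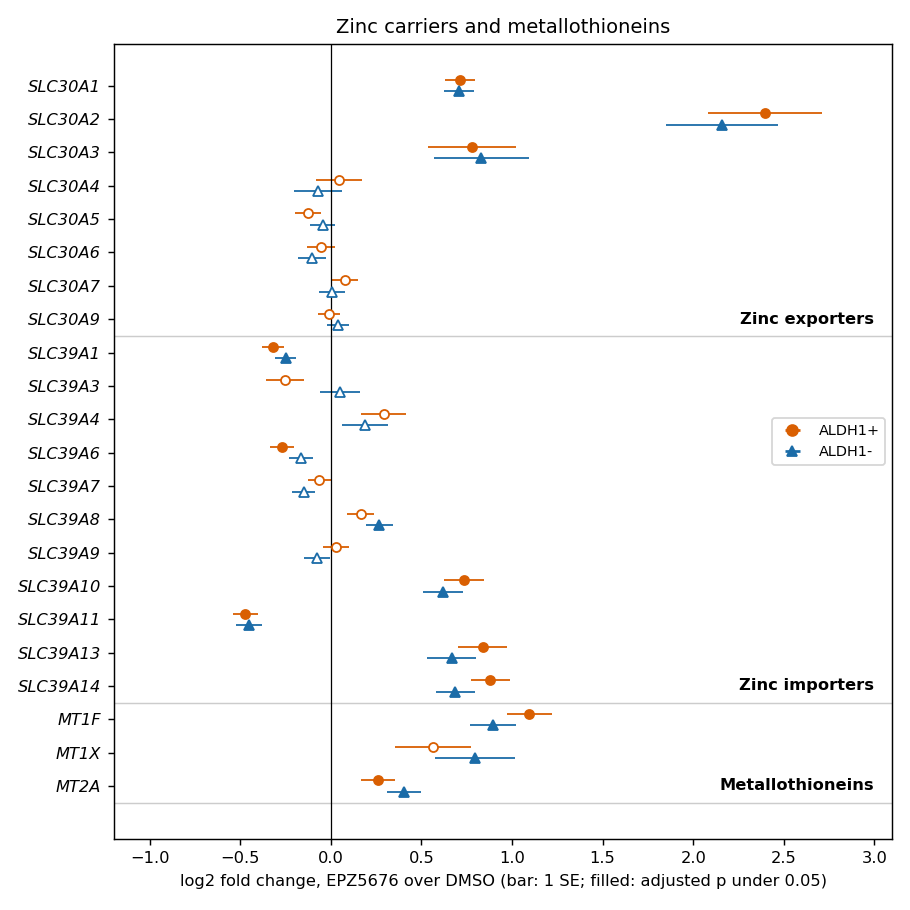
Log2 fold change with EPZ5676 against DMSO (x axis) of every tested zinc exporter (SLC30), zinc importer (SLC39) and metallothionein, with circles for ALDH1+ and triangles for ALDH1-. Bars are 1 SE from the fit of all 12 libraries, and filled symbols have an adjusted p below 0.05. SLC30A1, SLC30A2 and SLC30A3 lie to the right of 0 and the other 5 exporters around it, while the importers lie on both sides.

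Among carriers of other metals, SLC11A2 (DMT1), which takes up ferrous iron together with protons, fell in both populations. SLC11A2 stood at 58.6, 54.9 and 54.6 CPM in the DMSO ALDH1+ libraries and at 36.4, 37.2 and 42.7 CPM in the EPZ5676 ALDH1+ libraries. The ALDH1- libraries held 49.96, 54.2 and 57.5 CPM with DMSO and 36, 37.7 and 40.6 CPM with EPZ5676. The EPZ5676 libraries were all below the DMSO libraries, with log2 fold changes of -0.53 in ALDH1+ (SE 0.08, adjusted p = 0.00017) and -0.5 in ALDH1- (SE 0.08, adjusted p = 0.00044). SLC31A2, a copper carrier of endosomes and lysosomes chosen after its values were seen, changed by 0.46 in ALDH1+ and 0.63 in ALDH1- (adjusted p = 0.0088 and 0.0016). Of 12 tested genes listed for iron and copper handling, 1 rose and 3 fell in each population. That is 33.3%, beside 31.5% of all genes called in ALDH1+ and 22.6% in ALDH1-. The block added a fall of ACO1, the cytosolic aconitase that also binds iron-responsive elements, in both (adjusted p = 0.0256 in ALDH1+ and 0.0402 in ALDH1-) and a rise of ATOX1, a copper chaperone (adjusted p = 0.0241), in ALDH1-; ACO1 and ATOX1 were chosen after their values were seen. The shared rise was that of HEPHL1, a copper-dependent ferroxidase, from 0.255, 0.358 and 0.0885 CPM to 5.56, 5.58 and 3.37 CPM in ALDH1+. Its log2 fold changes were 4.60 in ALDH1+ (SE 0.34, adjusted p = 3.1e-07) and 4.26 in ALDH1- (SE 0.36, adjusted p = 1.6e-06). Every DMSO ALDH1+ library lay below the filter's level of 0.359 CPM. The filter may thus have favoured the rise of HEPHL1, and its call in ALDH1+ is no independent result. The falls were those of TFRC, the transferrin receptor (-0.32 in ALDH1+ and -0.35 in ALDH1- (adjusted p = 0.0036 and 0.0029)), of ATP7A, a copper pump (-0.84 in ALDH1+ and -0.71 in ALDH1- (adjusted p = 0.0024 and 0.012)), and of CP, the ferroxidase ceruloplasmin (-0.98 in ALDH1+ and -0.66 in ALDH1- (adjusted p = 0.0018 and 0.0418)). The call of ATP7A in ALDH1- was lost without DMSO ALDH1- replicate 3 or EPZ5676 ALDH1- replicate 2 (adjusted p = 0.07 and 0.0536, in that order). The call of CP in ALDH1- was lost without DMSO ALDH1- replicate 1, DMSO ALDH1- replicate 2, DMSO ALDH1- replicate 3, EPZ5676 ALDH1- replicate 2, EPZ5676 ALDH1- replicate 3 or EPZ5676 ALDH1+ replicate 2 (adjusted p = 0.0607, 0.0574, 0.165, 0.123, 0.121 and 0.0538, in that order), and with limma-voom (adjusted p = 0.0578). SLC40A1, the iron exporter ferroportin, did not pass the filter. Over all 26 tested metal carriers, 8 were higher and 5 lower in ALDH1+, and 8 were higher and 3 lower in ALDH1-, where 7 were lower with the block. The share called was 50% in ALDH1+ (all genes 31.5%) and 42.3% in ALDH1- (all genes 22.6%).

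The carriers of protons, bicarbonate and chloride were examined next. SLC9A2 (NHE2), a sodium-proton exchanger of epithelial membranes, had the largest rise of any carrier averaging at least 1 log2 CPM. In ALDH1+ cells SLC9A2 measured 1.06, 0.558 and 0.744 CPM with DMSO and 9.99, 7.51 and 5.97 CPM with EPZ5676. Values in ALDH1- were 0.733, 0.782 and 1.11 CPM and 8.04, 7.58 and 5.63 CPM. Every EPZ5676 library was at least 5-fold above the highest DMSO library of its population, with log2 fold changes of 3.31 in ALDH1+ (SE 0.25, adjusted p = 3.1e-07) and 3.02 in ALDH1- (SE 0.26, adjusted p = 1.7e-06). Of the other 5 tested members of the family, only SLC9A7, an exchanger of the trans-Golgi network, was called, with log2 fold changes of 0.47 (SE 0.13, adjusted p = 0.013) in ALDH1+ and 0.25 (SE 0.13, adjusted p = 0.195) in ALDH1-. Its call in ALDH1- appeared with the block (adjusted p = 0.0368), and the call of SLC9A7 in ALDH1+ was lost without DMSO ALDH1+ replicate 3 (adjusted p = 0.0565). SLC9A8, another exchanger of the Golgi, had -0.28 in ALDH1+ and -0.33 in ALDH1- (adjusted p = 0.116 and 0.0874) and was called lower only with the block (adjusted p = 0.0439 in ALDH1+ and 0.0283 in ALDH1-).

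In the bicarbonate family SLC4, members moved in opposite directions. SLC4A8, a sodium-driven chloride-bicarbonate exchanger, fell. The ALDH1+ libraries had 5.02, 4.18 and 3.72 CPM of SLC4A8 with DMSO and 1.85, 1.88 and 2.60 CPM with EPZ5676. For ALDH1- the values were 5.31, 4.83 and 4.22 CPM with DMSO and 2.24, 2.49 and 1.90 CPM with EPZ5676. No library overlapped with the other treatment, with log2 fold changes of -1.03 in ALDH1+ (SE 0.17, adjusted p = 0.00039) and -1.11 in ALDH1- (SE 0.18, adjusted p = 0.00041). SLC4A4, the electrogenic sodium-bicarbonate cotransporter, rose, with means of 2.65 ± 0.386 CPM with DMSO and 4.87 ± 0.768 CPM with EPZ5676 in ALDH1+ and 2.30 ± 0.794 CPM with DMSO and 4.20 ± 0.577 CPM with EPZ5676 in ALDH1- (SD, n = 3). This corresponded to log2 fold changes of 0.86 in ALDH1+ (SE 0.21, adjusted p = 0.006) and 0.87 in ALDH1- (SE 0.23, adjusted p = 0.012). SLC4A2, the chloride-bicarbonate exchanger AE2, had -0.13 in ALDH1+ and -0.17 in ALDH1- (adjusted p = 0.122 and 0.0622); its groups did not overlap, and the block called it lower in ALDH1- (adjusted p = 0.0336). Over the 7 tested members, 3 were higher and 1 lower in ALDH1+, and 1 was higher and 2 lower in ALDH1-. The share called was 57.1% in ALDH1+ (all genes 31.5%) and 42.9% in ALDH1- (all genes 22.6%).

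The carbonic anhydrase family, most members of which make bicarbonate, had 5 tested genes. Of these 2 were higher and 1 lower in ALDH1+, and 1 was higher and 1 lower in ALDH1-. With the block 2 were lower in ALDH1+. CA9, the hypoxia-induced enzyme of the cell surface, fell from 16.6, 15.5 and 17.5 CPM to 2.50, 2.59 and 4.11 CPM in ALDH1+ and from 7.33, 11.4 and 8.52 CPM to 1.18, 2.07 and 2.50 CPM in ALDH1-, with log2 fold changes of -2.46 in ALDH1+ (SE 0.22, adjusted p = 1.2e-06) and -2.24 in ALDH1- (SE 0.24, adjusted p = 1.3e-05). The cytosolic CA13 changed by 0.78 in ALDH1+ and 0.79 in ALDH1- (adjusted p = 0.0067 and 0.015). The call of CA13 in ALDH1- was lost without DMSO ALDH1- replicate 2 or DMSO ALDH1- replicate 3 (adjusted p = 0.0556 and 0.0534, in that order).

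The cation-chloride family SLC12 includes the potassium-chloride cotransporters, which let both ions out of the cell. SLC12A7 was at 3.53, 2.39 and 1.15 CPM in DMSO ALDH1+ and at 11.3, 5.63 and 4.72 CPM in EPZ5676 ALDH1+. It was at 2.79, 2.38 and 1.77 CPM in DMSO ALDH1- and at 13.7, 9.93 and 4.68 CPM in EPZ5676 ALDH1-. For SLC12A7 (KCC4) replicate 3 was the lowest in each group. The groups still did not overlap, with log2 fold changes of 1.68 in ALDH1+ (SE 0.43, adjusted p = 0.0084) and 2.03 in ALDH1- (SE 0.44, adjusted p = 0.0037). The call of SLC12A7 in ALDH1+ was lost without DMSO ALDH1+ replicate 3 (adjusted p = 0.0559). With the block, the adjusted p was 1.53e-06 in ALDH1+ and 3.67e-07 in ALDH1-. SLC12A4 (KCC1) had log2 fold changes of 0.37 in ALDH1+ and 0.28 in ALDH1- (adjusted p = 0.011 and 0.0611), and its call in ALDH1- appeared with the block (adjusted p = 0.00576). The call of SLC12A4 in ALDH1+ was lost without DMSO ALDH1+ replicate 3 (adjusted p = 0.0563).

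SLC12A2 (NKCC1), which brings sodium, potassium and chloride into the cell, was picked out after its values were seen. It had log2 fold changes of -0.49 in ALDH1+ and -0.25 in ALDH1- (adjusted p = 0.011 and 0.205), with a call in ALDH1- under the block (adjusted p = 0.0442). The call of SLC12A2 in ALDH1+ was lost without DMSO ALDH1+ replicate 3 (adjusted p = 0.0544). The kinases that act on this family had 6 tested genes, 3 higher and 1 lower in ALDH1+ and 2 higher and 1 lower in ALDH1-. STK39 (SPAK), which phosphorylates the cotransporters, rose, with log2 fold changes of 0.85 in ALDH1+ (SE 0.07, adjusted p = 4e-07) and 0.77 in ALDH1- (SE 0.07, adjusted p = 1.7e-06), and its close relative OXSR1 changed by 0.49 in ALDH1+ and 0.33 in ALDH1- (adjusted p = 0.00039 and 0.0089). WNK2, a kinase upstream of both, changed by -0.61 in ALDH1+ and -0.72 in ALDH1- (adjusted p = 0.00093 and 0.00036).

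Anion carriers of family SLC26 had 4 tested members. SLC26A2, a sulfate carrier needed to sulfate the sugar chains of proteoglycans, rose. SLC26A2 stood at 60.2, 74.5 and 56.3 CPM in the DMSO ALDH1+ libraries and at 143, 167 and 150.3 CPM in the EPZ5676 ALDH1+ libraries. The ALDH1- libraries held 54.5, 60.7 and 64.7 CPM with DMSO and 116, 122 and 123 CPM with EPZ5676. The groups did not overlap, and the EPZ5676 libraries of ALDH1+ lay above those of ALDH1-. The treatment gave log2 fold changes of 1.27 in ALDH1+ (SE 0.10, adjusted p = 4.2e-07) and 1.00 in ALDH1- (SE 0.10, adjusted p = 6e-06). In contrast SLC26A6, a chloride-bicarbonate and oxalate exchanger, changed by -0.49 in ALDH1+ and -0.48 in ALDH1- (adjusted p = 0.00085 and 0.0015), and SLC26A11, a sulfate and chloride carrier, by -0.5 in ALDH1+ and -0.57 in ALDH1- (adjusted p = 0.0035 and 0.0018). The sodium-coupled carboxylate carrier SLC13A3 changed by -0.39 in ALDH1+ and -0.43 in ALDH1- (adjusted p = 0.015 and 0.013). The call of SLC13A3 in ALDH1+ was lost without DMSO ALDH1+ replicate 1 or EPZ5676 ALDH1+ replicate 2 (adjusted p = 0.0529 and 0.0611, in that order). The call of SLC13A3 in ALDH1- was lost without DMSO ALDH1- replicate 1 or EPZ5676 ALDH1- replicate 3 (adjusted p = 0.0648 and 0.0521, in that order). SLC24A4, a calcium exchanger coupled to sodium and potassium and chosen after its values were seen, changed by 1.40 in ALDH1+ and 1.66 in ALDH1- (adjusted p = 0.0031 and 0.0025). SLC24A4 averaged below 1 log2 CPM, so its changes rest on low counts.

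Monocarboxylate carriers (SLC16) leaned upward: of 10 tested members, 5 were higher and 1 lower in ALDH1+, and 6 were higher and 1 lower in ALDH1- (2 lower with the block). The family median was 0.54 in ALDH1+ and 0.58 in ALDH1- on the log2 scale. The share called was 60% in ALDH1+ (all genes 31.5%) and 70% in ALDH1- (all genes 22.6%). These counts and medians include the rise of SLC16A9, which reached the filter's level with EPZ5676 only. SLC16A3 (MCT4), which lets lactate out of glycolytic cells, rose. In ALDH1+ cells SLC16A3 measured 5.31, 6.69 and 4.62 CPM with DMSO and 16, 17.4 and 12.6 CPM with EPZ5676. Values in ALDH1- were 7.44, 6.53 and 5.84 CPM and 14.1, 15.8 and 12.5 CPM. The lowest EPZ5676 library was above the highest DMSO library in each population, with log2 fold changes of 1.5 in ALDH1+ (SE 0.16, adjusted p = 5.4e-06) and 1.10 in ALDH1- (SE 0.16, adjusted p = 0.00014). SLC16A1 (MCT1), a carrier of lactate, pyruvate and ketone bodies in either direction, also rose, from 67, 77.9 and 58.9 CPM to 107, 108 and 96.3 CPM in ALDH1+ and from 68.7, 68.5 and 60.6 CPM to 105, 99.6 and 95.1 CPM in ALDH1-. The difference amounted to log2 fold changes of 0.61 in ALDH1+ (SE 0.09, adjusted p = 0.00017) and 0.60 in ALDH1- (SE 0.09, adjusted p = 0.0003).

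SLC16A9 was under 0.25 CPM in all DMSO libraries, at 0.0364, 0.0797 and 0.0708 CPM in ALDH1+ and 0.220, 0.136 and 0.192 CPM in ALDH1-, and at 0.606, 0.627 and 0.506 CPM and 0.449, 0.737 and 0.436 CPM with EPZ5676. It passed the filter through the EPZ5676 libraries, and its log2 fold changes of 3.13 in ALDH1+ (SE 0.38, adjusted p = 2.5e-05) and 1.57 in ALDH1- (SE 0.36, adjusted p = 0.0052) depended on few counts. SLC16A14, an orphan chosen after its values were seen, changed by 0.68 in ALDH1+ and 0.55 in ALDH1- (adjusted p = 0.00089 and 0.0059). SLC16A5 (MCT6) fell, with means of 20.7 ± 2.90 CPM with DMSO and 13.1 ± 2.52 CPM with EPZ5676 in ALDH1+ and 25.9 ± 1.77 CPM with DMSO and 15.2 ± 1.5 CPM with EPZ5676 in ALDH1- (SD, n = 3) and log2 fold changes of -0.68 in ALDH1+ (SE 0.14, adjusted p = 0.0015) and -0.77 in ALDH1- (SE 0.14, adjusted p = 0.00079).

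BSG (basigin), the chaperone that carries MCT1 and MCT4 to the cell surface, moved opposite to both carriers. Its values were 364, 349 and 372 CPM with DMSO and 264, 247 and 265 CPM with EPZ5676 in ALDH1+, with log2 fold changes of -0.48 in ALDH1+ (SE 0.07, adjusted p = 6.2e-05) and -0.46 in ALDH1- (SE 0.07, adjusted p = 0.00014). MPC1, a subunit of the mitochondrial pyruvate carrier, had log2 fold changes of -0.53 in ALDH1+ and -0.21 in ALDH1- (adjusted p = 0.00083 and 0.149), and the block called it in ALDH1- too (adjusted p = 0.0323). LDHA and LDHB, which interconvert pyruvate and lactate, were not called: LDHA had log2 fold changes of -0.12 in ALDH1+ and -0.05 in ALDH1- (adjusted p = 0.212 and 0.66) and LDHB of -0.02 in ALDH1+ and 0.06 in ALDH1- (adjusted p = 0.93 and 0.77). Of the 5 tested partners of these carriers, 0 rose and 2 fell in ALDH1+ and 1 fell in ALDH1-.

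**Figure D3:**
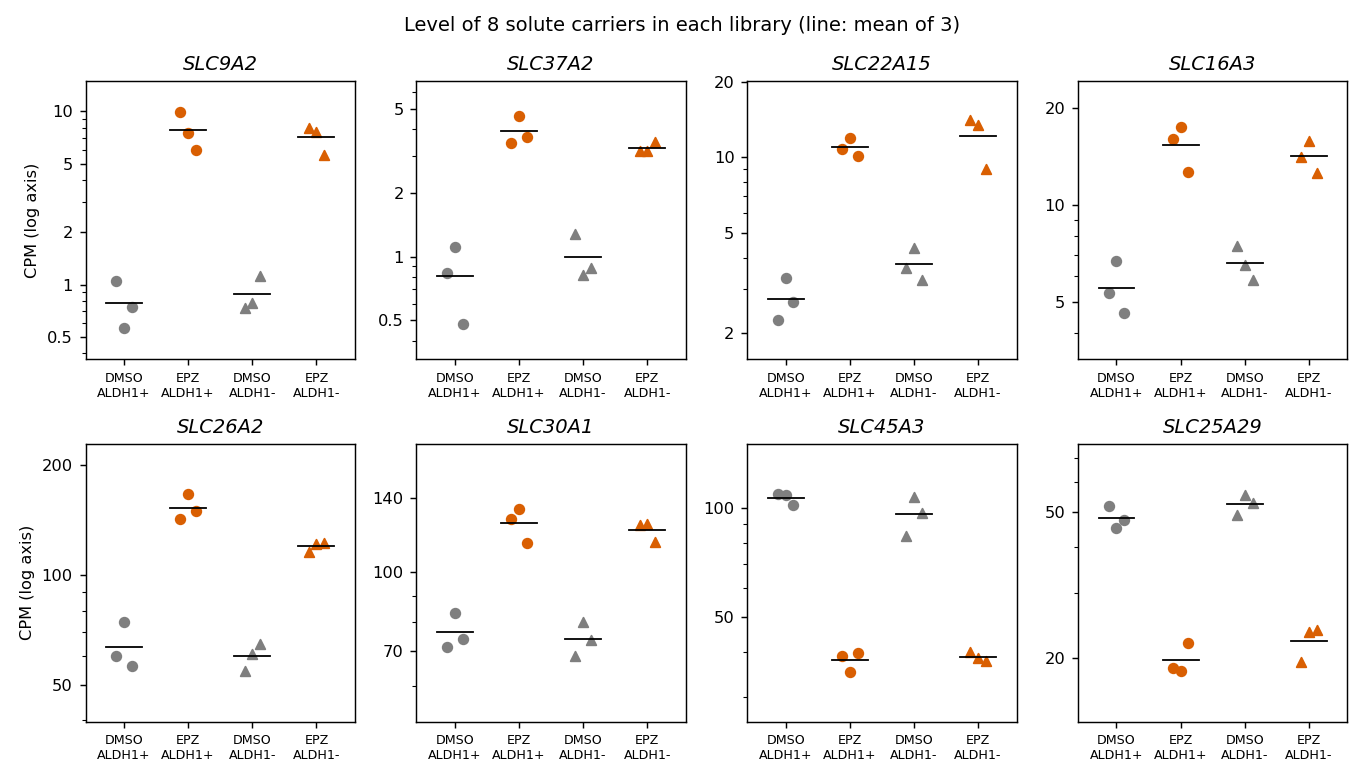
Level in CPM (log axis) of 8 carriers in each of the 12 libraries, grouped by treatment (grey DMSO, orange EPZ5676) and population (circles ALDH1+, triangles ALDH1-). Points are libraries and lines the mean of 3. In each population the EPZ5676 libraries lie wholly above the DMSO libraries for SLC9A2, SLC37A2, SLC22A15, SLC16A3, SLC26A2 and SLC30A1, and wholly below them for SLC45A3 and SLC25A29.

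Carriers of organelles and of sugars included the largest fall among carriers averaging at least 1 log2 CPM. SLC45A3 (prostein), a carrier of the family of proton-coupled sugar transporters known as an androgen-regulated gene of the prostate, fell. The ALDH1+ libraries had 109, 109 and 102 CPM of SLC45A3 with DMSO and 39, 35.3 and 39.8 CPM with EPZ5676. For ALDH1- the values were 83.8, 107 and 96.7 CPM with DMSO and 40.1, 38.6 and 37.8 CPM with EPZ5676. The groups were far apart relative to their spread, with log2 fold changes of -1.49 in ALDH1+ (SE 0.09, adjusted p = 3.8e-08) and -1.30 in ALDH1- (SE 0.09, adjusted p = 2.3e-07). SLC37A2, a phosphate-linked exchanger of glucose 6-phosphate in the endoplasmic reticulum, rose. SLC37A2 was at 0.837, 1.12 and 0.478 CPM in DMSO ALDH1+ and at 3.46, 4.64 and 3.67 CPM in EPZ5676 ALDH1+. It was at 1.28, 0.816 and 0.883 CPM in DMSO ALDH1- and at 3.14, 3.16 and 3.49 CPM in EPZ5676 ALDH1-. The groups did not overlap, with log2 fold changes of 2.40 in ALDH1+ (SE 0.25, adjusted p = 4.8e-06) and 1.71 in ALDH1- (SE 0.25, adjusted p = 0.00019). Its relative SLC37A1 changed by 0.46 in ALDH1+ and 0.29 in ALDH1- (adjusted p = 0.00094 and 0.026), while SLC37A4, the glucose 6-phosphate carrier of the endoplasmic reticulum that serves gluconeogenesis, changed by -0.36 in ALDH1+ and -0.28 in ALDH1- (adjusted p = 0.0065 and 0.0334). The call of SLC37A1 in ALDH1- was lost without DMSO ALDH1- replicate 2, DMSO ALDH1- replicate 3, EPZ5676 ALDH1- replicate 1 or EPZ5676 ALDH1- replicate 2 (adjusted p = 0.0876, 0.0806, 0.0939 and 0.0874, in that order). The call of SLC37A4 in ALDH1- was lost without DMSO ALDH1- replicate 1, DMSO ALDH1- replicate 2, DMSO ALDH1- replicate 3, EPZ5676 ALDH1- replicate 1 or EPZ5676 ALDH1- replicate 2 (adjusted p = 0.0648, 0.082, 0.103, 0.16 and 0.103, in that order), and with unscaled totals (adjusted p = 0.0512).

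SLC17A5 (sialin), which exports sialic acid from lysosomes, rose. SLC17A5 stood at 40.6, 49.99 and 44.1 CPM in the DMSO ALDH1+ libraries and at 81.5, 89.4 and 78.6 CPM in the EPZ5676 ALDH1+ libraries. The ALDH1- libraries held 39.4, 44.8 and 46.1 CPM with DMSO and 70.3, 74.7 and 81.3 CPM with EPZ5676. The lowest EPZ5676 library was above the highest DMSO library in each population, with log2 fold changes of 0.89 in ALDH1+ (SE 0.09, adjusted p = 4.3e-06) and 0.80 in ALDH1- (SE 0.09, adjusted p = 2.1e-05). In family SLC35, carriers of nucleotide sugars into the Golgi, 1 of 5 tested members was called. This was the CMP-sialic acid carrier SLC35A1, with -0.41 in ALDH1+ and -0.23 in ALDH1- (adjusted p = 0.017 and 0.216); the call of SLC35A1 in ALDH1+ was lost without DMSO ALDH1+ replicate 3, EPZ5676 ALDH1+ replicate 1 or EPZ5676 ALDH1+ replicate 2 (adjusted p = 0.102, 0.0677 and 0.051, in that order). SLC35A3, which carries UDP-N-acetylglucosamine, had -0.14 in ALDH1+ and -0.04 in ALDH1- (adjusted p = 0.255 and 0.79), and SLC35A4 had 0.14 in ALDH1+ and 0.02 in ALDH1- (adjusted p = 0.138 and 0.85).

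Carriers of organic ions and drugs had 17 tested members, of which 6 were higher and 4 lower in ALDH1+, and 5 were higher and 3 lower in ALDH1-. The share called was 58.8% in ALDH1+ (all genes 31.5%) and 47.1% in ALDH1- (all genes 22.6%). These counts include SLC10A4 and SLC47A2, which reached the filter's level in 1 treatment only. SLC22A15, a carrier of zwitterions such as ergothioneine, had the largest rise of family SLC22. In ALDH1+ cells SLC22A15 measured 2.26, 3.31 and 2.66 CPM with DMSO and 10.8, 11.9 and 10.2 CPM with EPZ5676. Values in ALDH1- were 3.63, 4.39 and 3.26 CPM and 14.1, 13.5 and 8.96 CPM. All EPZ5676 libraries were more than 2-fold above all DMSO libraries of their population, with log2 fold changes of 2.02 in ALDH1+ (SE 0.18, adjusted p = 1.5e-06) and 1.69 in ALDH1- (SE 0.18, adjusted p = 1.1e-05). SLC22A4 (OCTN1), another carrier of ergothioneine, changed by 0.80 in ALDH1+ and 0.84 in ALDH1- (adjusted p = 0.00014 and 0.00017). SLC22A23, an orphan, fell, with means of 71.5 ± 10.8 CPM with DMSO and 48.1 ± 5.43 CPM with EPZ5676 in ALDH1+ (SD, n = 3) and log2 fold changes of -0.57 in ALDH1+ (SE 0.11, adjusted p = 0.00081) and -0.64 in ALDH1- (SE 0.11, adjusted p = 0.00046).

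In family SLC10, related to the bile acid carriers, SLC10A4 rose from 0.182, 0.199 and 0.248 CPM to 1.14, 1.03 and 0.809 CPM in ALDH1+ and from 0.257, 0.374 and 0.115 CPM to 0.857, 1.02 and 0.912 CPM in ALDH1-, with log2 fold changes of 2.17 in ALDH1+ (SE 0.30, adjusted p = 7.1e-05) and 1.86 in ALDH1- (SE 0.33, adjusted p = 0.00074). It was among the genes that passed the filter with EPZ5676 only. SLC10A5 had 0.34 in ALDH1+ and 0.13 in ALDH1- (adjusted p = 0.41 and 0.8) and SLC10A7 -0.11 in ALDH1+ and -0.28 in ALDH1- (adjusted p = 0.62 and 0.208), with overlapping groups. Of the proton-coupled peptide carriers, SLC15A1 (PEPT1) changed by 0.45 in ALDH1+ and 0.61 in ALDH1- (adjusted p = 0.024 and 0.0079) and SLC15A2 (PEPT2) had log2 fold changes of 0.66 in ALDH1+ and 1.06 in ALDH1- (adjusted p = 0.111 and 0.026), while SLC15A4, a carrier of histidine and peptides in lysosomes, changed by -0.20 in ALDH1+ and -0.27 in ALDH1- (adjusted p = 0.0461 and 0.013). These calls were fragile. The call of SLC15A1 in ALDH1+ was lost without DMSO ALDH1+ replicate 2, DMSO ALDH1+ replicate 3 or EPZ5676 ALDH1+ replicate 1 (adjusted p = 0.0502, 0.137 and 0.104, in that order), and in a fit of the compared groups alone (adjusted p = 0.0663). The call of SLC15A2 in ALDH1- was lost without DMSO ALDH1- replicate 1, DMSO ALDH1- replicate 2, EPZ5676 ALDH1- replicate 1 or EPZ5676 ALDH1- replicate 2 (adjusted p = 0.0871, 0.0904, 0.0511 and 0.092, in that order). The call of SLC15A4 in ALDH1+ was lost without DMSO ALDH1- replicate 2, DMSO ALDH1- replicate 3, DMSO ALDH1+ replicate 1, DMSO ALDH1+ replicate 2, DMSO ALDH1+ replicate 3, EPZ5676 ALDH1- replicate 1, EPZ5676 ALDH1- replicate 2, EPZ5676 ALDH1+ replicate 2 or EPZ5676 ALDH1+ replicate 3 (adjusted p = 0.0641, 0.0508, 0.0736, 0.11, 0.0667, 0.0586, 0.0549, 0.116 and 0.119, in that order). It was also lost without the filter, in a fit of the compared groups alone and with unscaled totals (adjusted p = 0.204, 0.124 and 0.0749). The call of SLC15A4 in ALDH1- was lost without DMSO ALDH1- replicate 3 or EPZ5676 ALDH1- replicate 3 (adjusted p = 0.0825 and 0.0564, in that order), and without the filter (adjusted p = 0.0652). SLC47A2 (MATE2), an exporter of organic cations chosen after its values were seen, passed the filter with DMSO only and changed by -1.11 in ALDH1+ and -2.13 in ALDH1- (adjusted p = 0.013 and 0.00048). The call of SLC47A2 in ALDH1+ was lost without EPZ5676 ALDH1+ replicate 2 (adjusted p = 0.105).

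Among carriers of choline, nucleosides, vitamins and fatty acids, 5 of 23 were higher and 6 lower in ALDH1+, and 5 were higher and 4 lower in ALDH1-. The share called was 47.8% in ALDH1+ (all genes 31.5%) and 39.1% in ALDH1- (all genes 22.6%). With the block 8 were lower in each. SLC44A2, a choline carrier of the plasma membrane and mitochondria, fell. The ALDH1+ libraries had 1325, 1250.3 and 1304 CPM of SLC44A2 with DMSO and 826, 806 and 985 CPM with EPZ5676. For ALDH1- the values were 1056, 1211 and 1300.1 CPM with DMSO and 702, 761 and 871 CPM with EPZ5676. No EPZ5676 library reached the level of a DMSO library of its population, with log2 fold changes of -0.57 in ALDH1+ (SE 0.10, adjusted p = 0.00047) and -0.61 in ALDH1- (SE 0.10, adjusted p = 0.00035). The equilibrative nucleoside carriers moved in opposite directions: SLC29A2 (ENT2) changed by -0.47 in ALDH1+ and -0.55 in ALDH1- (adjusted p = 0.00061 and 0.00024) and the lysosomal SLC29A3 (ENT3) by 0.78 in ALDH1+ and 0.5 in ALDH1- (adjusted p = 0.00061 and 0.019). The call of SLC29A3 in ALDH1- was lost without DMSO ALDH1- replicate 3, EPZ5676 ALDH1- replicate 2 or EPZ5676 ALDH1- replicate 3 (adjusted p = 0.0816, 0.0801 and 0.0687, in that order). SLC29A1 (ENT1) had 0.13 in ALDH1+ and 0.17 in ALDH1- (adjusted p = 0.115 and 0.0674) and was called higher in ALDH1- with the block (adjusted p = 0.0416).

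SLC27A2 (FATP2), which takes up long-chain fatty acids and activates very-long-chain ones, rose, with means of 18.6 ± 1.69 CPM with DMSO and 26.1 ± 2.94 CPM with EPZ5676 in ALDH1+ (SD, n = 3) and log2 fold changes of 0.5 in ALDH1+ (SE 0.10, adjusted p = 0.002) and 0.43 in ALDH1- (SE 0.11, adjusted p = 0.0079). SLC27A1 (FATP1) had -0.25 in ALDH1+ and -0.28 in ALDH1- (adjusted p = 0.114 and 0.104) and SLC27A5, an enzyme of bile acid conjugation, -0.34 in ALDH1+ and -0.36 in ALDH1- (adjusted p = 0.0587 and 0.0735). Both were called lower in both populations with the block (SLC27A1, adjusted p = 0.0373 and 0.0392; SLC27A5, adjusted p = 0.0148 and 0.0191). SLC19A3, a thiamine carrier chosen after its values were seen, changed by 1.14 in ALDH1+ and 1.34 in ALDH1- (adjusted p = 0.02 and 0.014). SLC19A3 averaged below 1 log2 CPM, so its changes rest on low counts. The call of SLC19A3 in ALDH1+ was lost without DMSO ALDH1+ replicate 2, DMSO ALDH1+ replicate 3 or EPZ5676 ALDH1+ replicate 1 (adjusted p = 0.0673, 0.0866 and 0.0816, in that order). The call of SLC19A3 in ALDH1- was lost without DMSO ALDH1- replicate 2, DMSO ALDH1- replicate 3 or EPZ5676 ALDH1- replicate 1 (adjusted p = 0.0515, 0.0531 and 0.0705, in that order). SLC20A1, a phosphate carrier also chosen in this way, changed by 0.52 in ALDH1+ and 0.39 in ALDH1- (adjusted p = 0.00013 and 0.0018).

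The mitochondrial carriers (SLC25) are the largest family, with 41 tested members of 47. In ALDH1+ 6 were higher and 9 lower, and in ALDH1- 5 were higher and 5 lower. The share called was 36.6% in ALDH1+ and 24.4% in ALDH1-, close to the 31.5% and 22.6% of all genes. With the block 13 were lower in ALDH1+ and 9 in ALDH1- (all genes 19.6% and 14.8%). The median was -0.01 in ALDH1+ and -0.05 in ALDH1-. SLC25A29, a carrier of the basic amino acids arginine and lysine, had the largest fall. SLC25A29 was at 51.7, 45.1 and 47.4 CPM in DMSO ALDH1+ and at 18.8, 18.5 and 22 CPM in EPZ5676 ALDH1+. It was at 48.9, 55.6 and 52.7 CPM in DMSO ALDH1- and at 19.6, 23.5 and 23.9 CPM in EPZ5676 ALDH1-. The highest EPZ5676 library was below the lowest DMSO library in each population, with log2 fold changes of -1.28 in ALDH1+ (SE 0.10, adjusted p = 3.1e-07) and -1.23 in ALDH1- (SE 0.10, adjusted p = 9.9e-07).

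SLC25A1, the citrate carrier that supplies citrate for fatty acid synthesis in the cytosol, fell as well. SLC25A1 stood at 103, 106 and 120.3 CPM in the DMSO ALDH1+ libraries and at 68.4, 66.3 and 74.4 CPM in the EPZ5676 ALDH1+ libraries. The ALDH1- libraries held 102, 106 and 103 CPM with DMSO and 59.3, 64.7 and 71.8 CPM with EPZ5676. This was log2 fold changes of -0.66 in ALDH1+ (SE 0.08, adjusted p = 2.7e-05) and -0.67 in ALDH1- (SE 0.08, adjusted p = 3.9e-05). The dicarboxylate carrier SLC25A10, which exchanges malate and succinate for phosphate, changed by -0.78 in ALDH1+ and -0.56 in ALDH1- (adjusted p = 0.00042 and 0.0088). The call of SLC25A10 in ALDH1- was lost without DMSO ALDH1- replicate 2 (adjusted p = 0.0515). The orphan SLC25A35 changed by -0.38 in ALDH1+ and -0.58 in ALDH1- (adjusted p = 0.0368 and 0.0063). The call of SLC25A35 in ALDH1+ was lost without DMSO ALDH1+ replicate 1, DMSO ALDH1+ replicate 3, EPZ5676 ALDH1+ replicate 2 or EPZ5676 ALDH1+ replicate 3 (adjusted p = 0.114, 0.0559, 0.148 and 0.0765, in that order). It was also lost without the filter, in a fit of the compared groups alone and with unscaled totals (adjusted p = 0.119, 0.095 and 0.0503). The orphan SLC25A43 rose, with log2 fold changes of 0.46 in ALDH1+ (SE 0.06, adjusted p = 5.3e-05) and 0.40 in ALDH1- (SE 0.06, adjusted p = 0.00026). Of 13 genes of the outer membrane pores and of the import of carriers, 0 rose, 3 fell in ALDH1+ and 1 fell in ALDH1- (2 with the block). Among all genes 13.7% were called lower in ALDH1+ and 9.04% in ALDH1-. The pore VDAC1 changed by -0.29 in ALDH1+ and -0.18 in ALDH1- (adjusted p = 0.0016 and 0.0362). The call of VDAC1 in ALDH1- was lost without DMSO ALDH1- replicate 1, DMSO ALDH1- replicate 2, DMSO ALDH1- replicate 3, EPZ5676 ALDH1- replicate 1, EPZ5676 ALDH1- replicate 2 or EPZ5676 ALDH1+ replicate 1 (adjusted p = 0.0578, 0.136, 0.103, 0.148, 0.145 and 0.0544, in that order). It was also lost without the filter, in a fit of the compared groups alone and with unscaled totals (adjusted p = 0.115, 0.088 and 0.0658). The adenine nucleotide and phosphate carriers of family SLC25 have many processed pseudogenes, and how reads shared with such copies were counted is not given in the sources used here.

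Subfamilies were then compared by their response. Of the 15 families with at least 4 tested members, all had at least 1 called carrier in ALDH1+, and 14 had one in ALDH1-; the exception was SLC35. Calls in ALDH1+ went upward only in SLC9 (2 of 6), SLC10 (1 of 4), SLC27 (1 of 5) and SLC30 (3 of 8), and downward only in SLC35 (1 of 5). A single call, as in SLC10, SLC27 and SLC35, can go in 1 direction only and says nothing of the family. Shares called in ALDH1+ were 33.3% in SLC9, 25% in SLC10, 20% in SLC27, 37.5% in SLC30 and 20% in SLC35 (all genes 31.5%). The call in SLC10 was that of SLC10A4, which reached the filter's level with EPZ5676 only. With the block, falls were also called in ALDH1+ in SLC9 (1) and SLC27 (2). The other 10 families held calls in both directions. Family medians in ALDH1+ ran from -0.30 in SLC26 to 0.54 in SLC16. In ALDH1- the lowest and the highest median were -0.12 in SLC26 and 0.58 in SLC16. The SLC16 medians include SLC16A9, which reached the filter's level with EPZ5676 only. Families of 4 to 11 genes give wide uncertainty to such medians, and no test between families was made.

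By kind of substrate, the 30 ion exchangers and cotransporters had 13 rises and 4 falls in ALDH1+ and 7 rises and 4 falls in ALDH1-, with 7 falls in ALDH1- under the block. The 13 carriers of organic acids and sodium-coupled solutes had 5 and 2 in ALDH1+ and 6 and 2 in ALDH1-. The 19 vesicular and organellar carriers had 5 and 4, then 3 and 3. In this order, the shares called in ALDH1+ were 56.7%, 53.8% and 47.4% (all genes 31.5%). In ALDH1- they were 36.7%, 61.5% and 31.6% (all genes 22.6%). SLC34A3 among the ion carriers and SLC16A9 among the organic acid carriers reached the filter's level with EPZ5676 only. For comparison, the 44 tested carriers of the families left out had 21 rises and 3 falls in ALDH1+, a higher ratio of rises to falls than among the carriers kept; that difference was not tested.

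**Figure D4:**
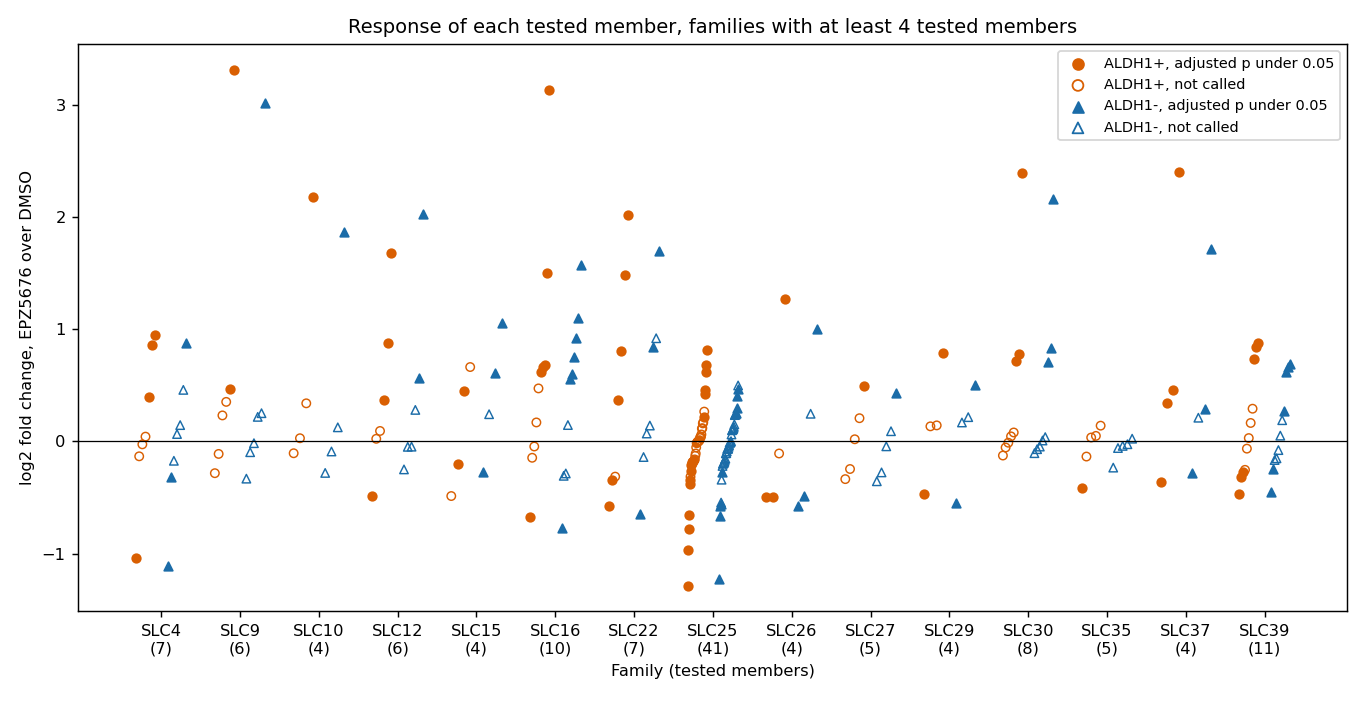
Log2 fold change with EPZ5676 against DMSO (y axis) of each tested carrier in the 15 families with at least 4 tested members (x axis, number of tested members in brackets). Circles are ALDH1+, triangles ALDH1-, and filled symbols have an adjusted p below 0.05. Most families hold both rises and falls; the 41 mitochondrial carriers (SLC25) are centred near 0, and SLC16 has the highest median.

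Sequence features that played no part in choosing the carriers were then described. A RefSeq promoter window (build GRCh38.p14, the first listed start per gene) was matched by symbol for 134 of the 170 carriers. The metal response element core was in 16 of the 29 matched carriers called higher in both populations (55.2%), in 6 of 17 called lower in both (35.3%), in 5 of 25 called in 1 population (20%) and in 19 of 63 called in neither (30.2%). In all 134 the share was 34.3%, beside 29.4% of all promoters. The 29 include SLC16A9, whose window held the core, and SLC10A4, whose window did not. Both reached the filter's level with EPZ5676 only. The 17 include SLC47A2, whose window held the core and which reached that level with DMSO only. The E-box CACGTG was in 6 of 29 called higher in both (20.7%), SLC16A9 among them, and in 1 of 17 called lower in both (5.88%). It was in 2 of 25 called in 1 population (8%), in 7 of 63 called in neither (11.1%) and in 16 of all 134 (11.9%), beside 7.44% of all promoters. The AP-1 motif TGANTCA was in 2 of 29 (6.90%) and in 1 of 17 (5.88%). It was in 1 of 25 called in 1 population (4%), in 1 of 63 called in neither (1.59%) and in 5 of all 134 (3.73%), beside 7.76% of all promoters. Carrier promoters had a median G+C content of 67.0% against 58.3% in all promoters, and the motifs differ in G+C content, so part of a share can follow base composition. Carriers called higher in both spanned a median of 54.2 kb of genome from start to end of the gene and those called lower in both 25.3 kb. The median was 26.7 kb for those called in 1 population and 37.2 kb for those called in neither. Spans of all genes were not taken, and no test of span was made.

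Carriers were finally compared between ALDH1+ and ALDH1- cells within a treatment. With DMSO no carrier was called by edgeR (0% of all genes), by DESeq2 or by limma-voom. An unadjusted p under 0.05 in edgeR was found for 26 of the 170 carriers and for 2904 of all 16327 genes. Among the carriers SLC13A3 had the smallest p, with -0.36 on the log2 scale for ALDH1+ over ALDH1- (SE 0.11, adjusted p = 0.171). With the replicate number as a block, which called 8.48% of all genes, 6 carriers were lower in ALDH1+ and 0 higher: SLC41A1, a magnesium carrier, at -0.28, SLC39A14 at -0.27, SLC16A5 at -0.33, SLC13A3 at -0.35, SLC37A1 at -0.22 and SLC9A7 at -0.29 on the log2 scale, with adjusted p between 0.0183 and 0.0489. With EPZ5676 no carrier was called by any of the 3 tools (0.0184% of all genes). Here 11 carriers and 1032 of all 16327 genes had an unadjusted p under 0.05. SLC26A2 had the smallest p of the carriers there, with 0.35 on the same scale (SE 0.10, adjusted p = 0.50).

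Whether the response differed between the populations was tested as an interaction. No carrier was called by edgeR (0% of all genes), DESeq2 or limma-voom. In edgeR 6 carriers and 597 of all 16327 genes had an unadjusted p under 0.05. Among the carriers SLC15A3, a peptide carrier of lysosomes, had the smallest p, at -0.73 (SE 0.28, adjusted p = 0.979). The carriers called in 1 population only are therefore not shown to respond differently in the other.

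The 97 carriers that were not tested include whole families with no tested member in these cells: the urea carriers (SLC14), the vesicular carriers of amines (SLC18) and of inhibitory amino acids (SLC32), and ferroportin (SLC40). At this depth 3 counts correspond to 0.0376 to 0.122 CPM, so levels below that were not detectable in single libraries. The untested carrier with the highest mean was SLC22A31, at 0.278 CPM.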

How the data were processed

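Bulk RNA sequencing covered 12 libraries in 4 groups of 3. The table that the authors deposited holds raw read counts, 1 whole number for each gene and library, unscaled. Its columns say untreated and treated, read here as DMSO and EPZ5676 after the labels. Trim Galore, STAR and hg19 stand in the submitters' processing notes, with no version. Which program counted reads, whether it used strand and on which annotation is not given in the sources used here, so reads of overlapping, antisense or pseudogene transcripts may sit with a carrier. The kit was directional, per the labels' protocols.

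Symbols were found for 51959 of 57783 identifiers (version dropped) in a GENCODE table. An hg19 annotation was not used, and only the RefSeq promoters (GRCh38.p14) carry coordinates. Analysis ran in edgeR 4.0.16 under R 4.3.3: filterByExpr by group with a count minimum of 10, scaling by trimmed means of M values (factors 0.975 to 1.02), and a single quasi-likelihood fit over the 12 libraries with group as the term. Benjamini-Hochberg adjustment covered the 16327 genes tested, and calls needed an adjusted p below 0.05. The SE of a log2 fold change was derived from its F value. The common biological coefficient of variation was 9.58%. The fit was also run on simulated counts with independent libraries and the same spread for all genes. That run does not cover the pairing of replicates described below. All pairs of replicates differed beyond counting error (chi-square over degrees of freedom 3.92 to 34.1). Floors of 3 counts cover counting error only.

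Libraries that share a replicate number across groups deviated together from their group means over 12434 genes (correlations 0.178 to 0.646 in all 18 pairs; -0.658 to 0.214 for unequal numbers). The numbers thus pair the libraries, though the labels do not say what a number shares. The replicate block is reported where it alters a call or moves a count by over 1.5 times.

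Carriers, families, partner lists and tests were chosen with earlier results of these data known. The naming rule took the 15 largest mean rises and 15 largest mean falls among carriers called in both populations in 1 direction and averaging at least 1 log2 CPM. It added the 3 smallest p of every family with 4 or more tested members, carriers called between populations, at most 4 genes of a partner list, DOT1L and ALDH1A1, and gave 54 carriers. Some genes named by the rule are not reported here. Others are said to be chosen after their values were seen. As alternatives, RLE (median-ratio) scaling, unscaled totals, no filter, at least 1 CPM in 3 libraries, DESeq2 1.42.0, limma-voom (limma 3.58.1), fits of the compared groups alone, the replicate block and leave-one-out fits were run. Counting only carriers averaging at least 1 log2 CPM was added after seeing the data.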

Additional observations from a re-analysis of the deposited data

How the results depend on the processing

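The counts of carriers called higher or lower with EPZ5676 kept within 1.5 times under every alternative run, except that 40 instead of 24 were lower in ALDH1- with the replicate block. Leaving out 1 library gave 34 to 50 higher and 24 to 38 lower in ALDH1+, and 30 to 41 higher and 18 to 27 lower in ALDH1-. Between populations, 6 carriers were lower in ALDH1+ with DMSO under the replicate block, and 1 was higher in ALDH1+ with EPZ5676 without the filter; the other alternatives gave 0, and the cause was not tested. The median log2 fold change in ALDH1- of -0.00935 moved by more than the spread of its 3 pairs: to -0.00485 with RLE scaling, 0.011 with total counts, 0.0505 without the filter, -0.00316 with at least 1 CPM in 3 libraries and 0.0125 with only the groups compared. Leaving out 1 library gave -0.0115 to 0.0235. The medians of its 3 pairs of equal replicate number, on log2 CPM, were 0.0262, 0.0233 and 0.0175, of the opposite sign to the fitted median, so its sign is not fixed by these data. For the 96 named genes, 3630 of 3828 values under the alternatives kept their side of the threshold, 149 lost the call, 49 gained it and 0 changed direction among called values. The replicate block accounted for 19 of the gains and 0 of the losses and leaving out 1 library for 124 of the losses. Such a fit has fewer libraries. The depth of the shallowest library, 24348594 counts, limits carriers near 0.359 CPM.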
